A study of Mus musculus with 6 samples.

Results

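The trefoil factors Tff1, Tff2 and Tff3 and the gastrokines Gkn1, Gkn2 and Gkn3 are small secreted proteins. Their genes are 6 of the 21526 gene symbols in the count table. They were taken by symbol alone, and all 6 were found. The data are read counts from gastric corpus epithelium of mice, in 3 libraries of Yap-activated gastric cancer and 3 libraries of normal stomach (Normal). The Yap-activated mice carried CluCreERT2, in which the Clu gene drives a tamoxifen-dependent Cre recombinase, together with R26rtTA, whose product responds to doxycycline, and HA-Yap+, a tagged form of Yap. The Normal mice were wild-type (WT) and carried none of these alleles, so effects of the Cre and rtTA alleles and of HA-Yap cannot be told apart. The labels give the same treatment for both groups, namely 2 mg of tamoxifen daily over 5 days followed by 14 days on doxycycline food. The labels used here name no strain or age and do not say whether each library came from its own animal.

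Trefoil factors are built on a compact domain held in 3 loops by disulfide bonds, while gastrokines carry a BRICHOS domain. In the normal stomach Tff1, Gkn1 and Gkn2 are known as products of the surface mucous (pit) cells, and Tff2, also called spasmolytic polypeptide, as a product of mucous neck cells. Tff2 gives its name to spasmolytic polypeptide-expressing metaplasia (SPEM), in which corpus glands take on neck-like features. In mice Gkn3 is also known from neck cells and metaplastic glands, and Tff3 is best known from intestinal goblet cells.

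The libraries held 25580734 to 44295619 counts in Yap-activated tissue and 36815754 to 48440033 in Normal tissue. Levels below are CPM, the counts of a gene relative to the library size as scaled by the TMM method, and a gene was called where its adjusted p was below 0.05 in edgeR's quasi-likelihood test over 14600 genes. Calls with Yap-activated tissue higher made up 29.8% of those genes and calls with it lower 29.7%, which adds to 59.5%. Groups without any overlap were found at 67.6% of genes, with Yap-activated libraries above at 33.2% and below at 34.4%. Yap1 had 3085, 1468 and 1651 CPM in the Yap-activated libraries, against 100, 105 and 106 CPM in the Normal libraries (log2 fold change 4.32, edgeR adjusted p = 2.19e-05). Reads from HA-Yap may be part of that count, which does not separate them from those of the mouse's own Yap1 gene. The summed level of 3 chief cell markers tested was 152 to 186 CPM in Yap-activated and 87908 to 137667 CPM in Normal libraries, and that of 4 parietal cell markers was 24.6 to 33.6 CPM and 21268 to 28949 CPM. These are bulk libraries, in which fewer cells of a type and less RNA per cell cannot be told apart.

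Of the 6 genes 3 fell, Gkn1, Gkn2 and Tff1, while Gkn3 and Tff3 rose and Tff2 did not pass the threshold. Gkn1 was 34.4-fold, Gkn2 31.2-fold and Tff1 3.04-fold lower, and the rises were 3.32-fold for Gkn3 and 5.14-fold for Tff3. Calls at 5 of 6 genes stand beside 59.5% of all genes tested, and 5 of 6 without overlap beside 67.6%. Tff3 passed the filter on low counts through the Yap-activated libraries, since all 3 of these and 2 of the 3 Normal libraries reached its cutoff.

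**Figure D1:**
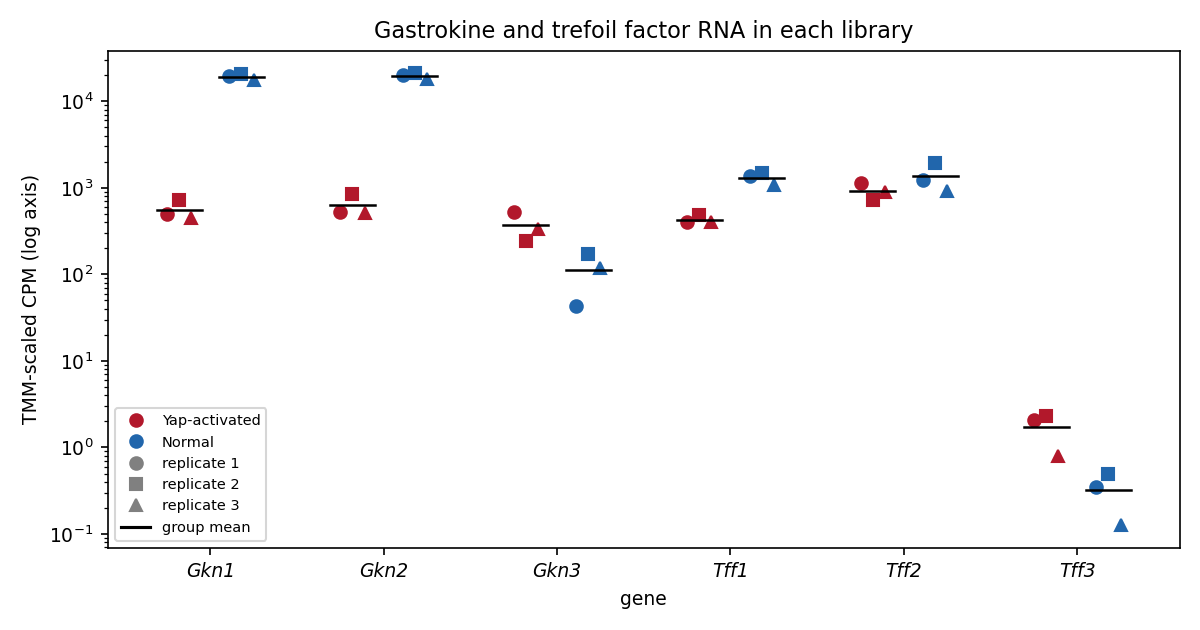
TMM-scaled CPM (log axis) of each gene in the 3 Yap-activated (red) and 3 Normal (blue) libraries, with 1 symbol per replicate number and a black line at each group mean. Gkn1, Gkn2 and Tff1 lie lower in every Yap-activated library, Gkn3 and Tff3 lie higher, and the groups overlap for Tff2.

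Levels of different genes were compared per kilobase of annotated exon. In Yap-activated tissue the order was Tff2 at 1563 ± 339, Gkn2 at 799 ± 247, Tff1 at 610 ± 65.8, Gkn1 at 448 ± 118, Gkn3 at 431 ± 174 and Tff3 at 3.50 ± 1.65 CPM per kb (SD, n = 3). In Normal tissue the order was Gkn2 at 24944 ± 1985, Gkn1 at 15410 ± 1141, Tff2 at 2329 ± 882, Tff1 at 1854 ± 287, Gkn3 at 130 ± 75.8 and Tff3 at 0.659 ± 0.380 CPM per kb (SD, n = 3). The ranges of Gkn2, Tff1, Gkn1 and Gkn3, taken as neighbours in this order, overlapped in Yap-activated tissue, while Tff2 stood above and Tff3 below them. Among Normal libraries the only neighbours whose ranges overlapped were Tff2 and Tff1, and there Tff2 was the higher in all 3. That order rests on the exon lengths used. In read counts Tff2 over Tff1 was 0.909, 1.31 and 0.851 in Normal replicates 1, 2 and 3. Ranked per kilobase among 21523 annotated genes, Gkn2 held places 17 to 30 in Yap-activated libraries and 4 to 6 in Normal libraries. Tff2 held places 11 to 16 in Yap-activated and 15 to 17 in Normal libraries.

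Gkn1 and Gkn2, the gastrokines of the surface mucous cells, fell together. Gkn1 had 501, 727 and 450 CPM in the Yap-activated libraries, against 19504, 20553 and 17731 CPM in the Normal libraries. Gkn2 had 528, 854 and 507 CPM in the Yap-activated libraries, against 20082, 20962 and 17922 CPM in the Normal libraries. Every Yap-activated library lay far below every Normal library, and Yap-activated replicate 2 was the highest of its group for both genes. The log2 fold change of Gkn1 was -5.11, with an SE of 0.29 and a 95% interval of -5.77 to -4.44 (edgeR, Benjamini-Hochberg adjusted p = 6.32e-06), which is 34.4-fold lower. That of Gkn2 was -4.96 (SE 0.31, 95% interval -5.67 to -4.25, edgeR adjusted p = 9.25e-06), which is 31.2-fold lower. Among the 14600 genes tested, ordered from the deepest fall, Gkn1 stood at place 147 and Gkn2 at place 159. Their coefficient of variation was 26.3% and 30.9% among Yap-activated libraries against 7.40% and 7.96% among Normal libraries.

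Gkn3, a gastrokine of neck cells and metaplastic glands in mice, moved the other way. It had 532, 240 and 336 CPM in the Yap-activated libraries, against 43.5, 173 and 117 CPM in the Normal libraries. The groups did not overlap, and the nearest libraries of the groups were Yap-activated replicate 2 and Normal replicate 2. Gkn3 rose by 1.73 on the log2 scale, with a 95% interval of 0.50 to 2.97 and an SE of 0.52 (edgeR adjusted p = 0.0249). It did not pass with no filter on low counts (adjusted p = 0.0502), nor without Yap-activated replicate 1 (log2 1.39, adjusted p = 0.0561), Yap-activated replicate 3 (0.0507) or Normal replicate 3 (0.0763), and the adjusted p ran from 0.00608 to 0.0763 over all alternatives. Markers of the antrum and pylorus, the lower stomach, moved with it. Both of 2 such markers, Gast and Pdx1, rose, beside 29.8% of all genes tested that rose. Their summed level was 44.7 to 70.5 CPM in Yap-activated and 4.08 to 12.0 CPM in Normal libraries, and neither marker was at 0 in a whole group. The sum was highest in Yap-activated replicate 2, where Gkn3 was lowest of its group, and among Normal libraries it was highest in replicate 3 and lowest in replicate 1, while Gkn3 was highest in replicate 2 and lowest in replicate 1. The part of these markers in the Gkn3 result was not tested.

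The 3 gastrokine genes lie side by side within 43.3 kb of chromosome 6 (GRCm38, GENCODE release M21), each with 6 exons. Gkn1 spans 87345650 to 87350942 on the minus strand, Gkn2 87373357 to 87379497 on the plus strand and Gkn3 87383256 to 87388935 on the minus strand. Because the first pair fell together and the third gene rose, the 250 bases before the RefSeq start of each are shown, from the RefSeq promoter table on GRCm38.p6, 5′ to 3′ on the strand of the gene. RefSeq promoters were matched for 3 of the 6 genes. Capitals mark matches, on either strand, to the motifs searched, which were GGAATG (bound by TEAD factors, the DNA-binding partners of Yap), GATAA (GATA factors), TGANTCA (AP-1), TGTTTNC (forkhead factors) and TATAAA (the TATA box).
Gkn1, chr6:87350916-87351165, minus strand: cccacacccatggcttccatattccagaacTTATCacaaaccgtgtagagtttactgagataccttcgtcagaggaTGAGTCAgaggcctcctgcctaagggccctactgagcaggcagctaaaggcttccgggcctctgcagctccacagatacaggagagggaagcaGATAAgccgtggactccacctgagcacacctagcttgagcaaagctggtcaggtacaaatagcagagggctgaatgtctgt
Gkn2, chr6:87373115-87373364, plus strand: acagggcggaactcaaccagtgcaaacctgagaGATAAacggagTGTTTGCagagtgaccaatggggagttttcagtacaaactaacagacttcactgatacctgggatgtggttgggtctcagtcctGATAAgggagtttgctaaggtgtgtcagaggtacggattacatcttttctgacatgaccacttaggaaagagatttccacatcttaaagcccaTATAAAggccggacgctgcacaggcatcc
Gkn3, chr6:87388936-87389185, minus strand: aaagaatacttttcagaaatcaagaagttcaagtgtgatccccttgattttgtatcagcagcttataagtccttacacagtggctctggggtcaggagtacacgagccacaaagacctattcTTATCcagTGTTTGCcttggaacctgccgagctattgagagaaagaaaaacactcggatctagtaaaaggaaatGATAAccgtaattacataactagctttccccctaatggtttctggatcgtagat

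Each of the 3 windows held 2 matches to GATAA, in both the pair that fell and the gene that rose. Of 27025 RefSeq promoters cut to the same 250 bases, 23.0% held at least 1 such match and 4.50% held 2 or more. TGTTTNC matched once in Gkn2 and once in Gkn3, and in 17.9% of promoters. The AP-1 letters matched once in Gkn1 and in 6.87% of promoters. TATAAA matched once, 29 to 24 bases before the start of Gkn2, and in 13.0% of promoters. The letters GGAATG were not in these windows and were in 12.6% of promoters. No matched bases were shared between motifs in these windows.

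Tff1, the trefoil factor of the surface mucous cells, fell, by a smaller fold than Gkn1 and Gkn2. It had 407, 482 and 398 CPM in the Yap-activated libraries, against 1357, 1473 and 1081 CPM in the Normal libraries. The groups did not overlap, and the Yap-activated libraries lay close to each other. Tff1 was 3.04-fold lower in Yap-activated tissue, a log2 fold change of -1.60 with a 95% interval of -1.99 to -1.21 and an SE of 0.17 (edgeR adjusted p = 0.000123). Tff1 spans 31161395 to 31165277 on the minus strand of chromosome 17 and has 2 annotated transcripts of 2 and 3 exons. The antisense gene Gm15318, for which the table has no row, shares 221 of the 703 exon bases of Tff1. The libraries were stranded, but how strand was used in counting is not stated, so reads of that antisense gene may sit in the Tff1 count.

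Tff2, the spasmolytic polypeptide, did not pass the threshold. It had 1122, 729 and 887 CPM in the Yap-activated libraries, against 1234, 1926 and 920 CPM in the Normal libraries. The groups overlapped, with Yap-activated replicate 1 above Normal replicate 3. Tff2 had a log2 fold change of -0.58 with an SE of 0.29 (edgeR adjusted p = 0.119), and its 95% interval of -1.24 to 0.09 reaches from more than a 2-fold fall to a slight rise. Without Normal replicate 3 it passed (log2 -0.80, adjusted p = 0.0439), the only pass among 16 alternatives, over which the adjusted p ran from 0.0439 to 0.790. Tff2 spans 31141049 to 31144282 on the minus strand of chromosome 17, in 4 exons.

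Tff3, the trefoil factor of intestinal goblet cells, was by far the lowest of the 6. It had 61, 97 and 43 read counts in the Yap-activated libraries, against 12, 21 and 4 in the Normal libraries. Scaled, that is 2.07, 2.31 and 0.80 CPM in the Yap-activated libraries, against 0.349, 0.499 and 0.126 CPM in the Normal libraries. The groups did not overlap, and replicate 3 was the lowest of each group. Tff3 rose by 2.36 on the log2 scale, with a 95% interval of 1.02 to 3.70 and an SE of 0.58 (edgeR adjusted p = 0.00882), and with no filter on low counts it was 2.36 again (adjusted p = 0.00766). Per kilobase its mean in Yap-activated tissue was 3.50 CPM, beside 1563 CPM for Tff2. Tff3 spans 31125306 to 31129646 on the minus strand of chromosome 17, in 3 exons.

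Of 16 goblet and intestinal genes 10 were tested, of which 4 rose, 3 fell and 3 did not pass. Over all genes tested 29.8% rose and 29.7% fell. The median log2 fold change of the 10 was 0.48, beside 0.01 over all genes tested. Cdh17, an intestinal cadherin, had 1.83, 1.84 and 0.856 CPM in Yap-activated libraries and 0.0713 CPM or less in Normal libraries (log2 5.63, adjusted p = 0.000647). Cdh17 and 2 more of the 10 reached the cutoff of the filter on low counts in 1 group only, and had to differ to be tested; 2 of these 3 are among the 4 that rose and 1 among the 3 that fell. Spdef, a transcription factor of goblet cells, fell to 33.5 ± 8.59 CPM in Yap-activated tissue, against 75.6 ± 9.92 CPM in Normal tissue (SD, n = 3; log2 -1.18, edgeR adjusted p = 0.00162). Among 4 goblet cell markers only Clca1, a secreted goblet cell protein, was called, and it rose (log2 3.35, adjusted p = 0.00835). It had 251, 286 and 274 CPM in Yap-activated libraries, against 4.22, 48.4 and 26.6 CPM in Normal libraries. Muc2, the defining mucin of goblet cells, had 1.08, 0.811 and 1.84 CPM in Yap-activated libraries, against 1.92, 1.64 and 1.74 CPM in Normal libraries, and did not pass. The summed level of the 4 markers was 274 to 299 CPM in Yap-activated and 7.11 to 65.9 CPM in Normal libraries, mostly Clca1, with none at 0 in a whole group. Their part in the Tff3 result was not tested. Clca1 and Muc2 are named after their values were seen.

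Together the 6 genes held 0.344 ± 0.0267% of all counts in Yap-activated libraries and 3.52 ± 0.355% in Normal libraries (SD, n = 3), so the share was 10.2-fold lower in Yap-activated libraries. The 2-sided exact permutation p was 0.1, the smallest that 3 against 3 can give. The gastrokines made most of this difference, with 0.185 ± 0.0303% in Yap-activated and 3.29 ± 0.292% in Normal libraries (exact permutation p = 0.1, n = 3 each). The trefoil factors held 0.159 ± 0.0162% in Yap-activated and 0.225 ± 0.0636% in Normal libraries, ranges that overlapped (exact permutation p = 0.2, n = 3 each). That difference of -0.0659 percentage points was -0.0307 without Normal replicate 2. Of counts without the 50 most abundant other genes it was -0.166 (exact permutation p = 0.1), and the differences of the 6 genes and of the gastrokines were -5.23 and -5.06 in place of -3.17 and -3.11. Of counts without mitochondrially encoded genes the trefoil factors differed by -0.103 (exact permutation p = 0.2).

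**Figure D2:**
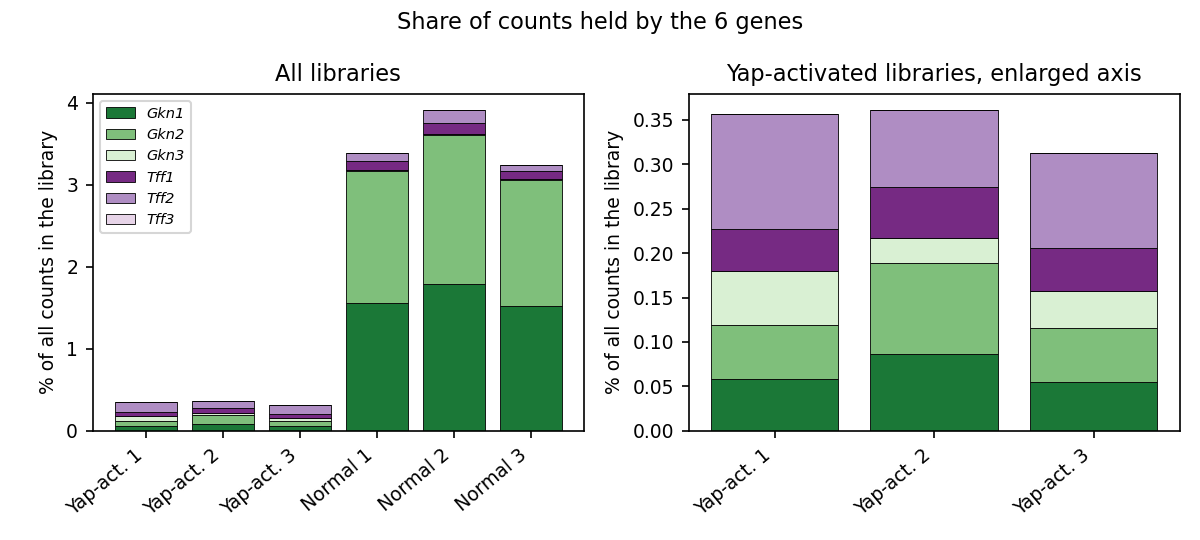
Percent of all counts in each library held by the 6 genes, stacked by gene, for all libraries (left) and for the Yap-activated libraries on an enlarged axis (right). The total lies between 0.313% and 0.362% in Yap-activated and between 3.25% and 3.92% in Normal libraries, where Gkn1 and Gkn2 make up nearly all of it.

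Ratios between genes of 1 library do not depend on how libraries are scaled, and 9 pairs were compared, per kilobase of exon. Gkn2 over Gkn1 was 1.67, 1.86 and 1.79 in Yap-activated libraries and 1.63, 1.62 and 1.60 in Normal libraries, a log2 difference of 0.13. Gkn3 over Gkn1 was 1.55, 0.482 and 1.09 in Yap-activated libraries, against 0.00325, 0.0123 and 0.00963 in Normal libraries. That is a difference of 7.0 on the log2 scale, the widest among the 9 pairs. Per length, Gkn3 was above Gkn1 in Yap-activated replicates 1 and 3 and below it in replicate 2 and in all Normal libraries.

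Tff2 over Tff1 was 3.32, 1.82 and 2.68 in Yap-activated libraries, against 1.09, 1.57 and 1.02 in Normal libraries, a log2 difference of 1.07. Gkn2 forms disulfide-linked dimers with Tff1, as shown for the human proteins. Gkn2 over Tff1 was 1.16, 1.58 and 1.14 in Yap-activated libraries, against 13.2, 12.7 and 14.8 in Normal libraries, a log2 difference of -3.41. Tff1 is secreted with the mucin Muc5ac, and Tff1 over Muc5ac was 52.5, 147 and 276 in Yap-activated libraries, against 3.07, 3.11 and 2.64 in Normal libraries. The log2 difference was 5.45, with 6.10 without Yap-activated replicate 1 and 4.91 without Yap-activated replicate 3. Tff2 is secreted with the mucin Muc6, and Tff2 over Muc6 differed by 0.69 on the log2 scale. With single libraries left out that difference ran from 0.35, without Normal replicate 3, to 0.88, without Normal replicate 1. Tff3 over Tff1 differed by 4.0, Gkn3 over Gkn2 by 6.87 and Tff2 over Tff3 by -2.93. All 9 ratios were apart between the groups, each with a 2-sided exact permutation p of 0.1, the smallest that 3 against 3 can give, and 0.1 after adjustment over the 9.

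**Figure D3:**
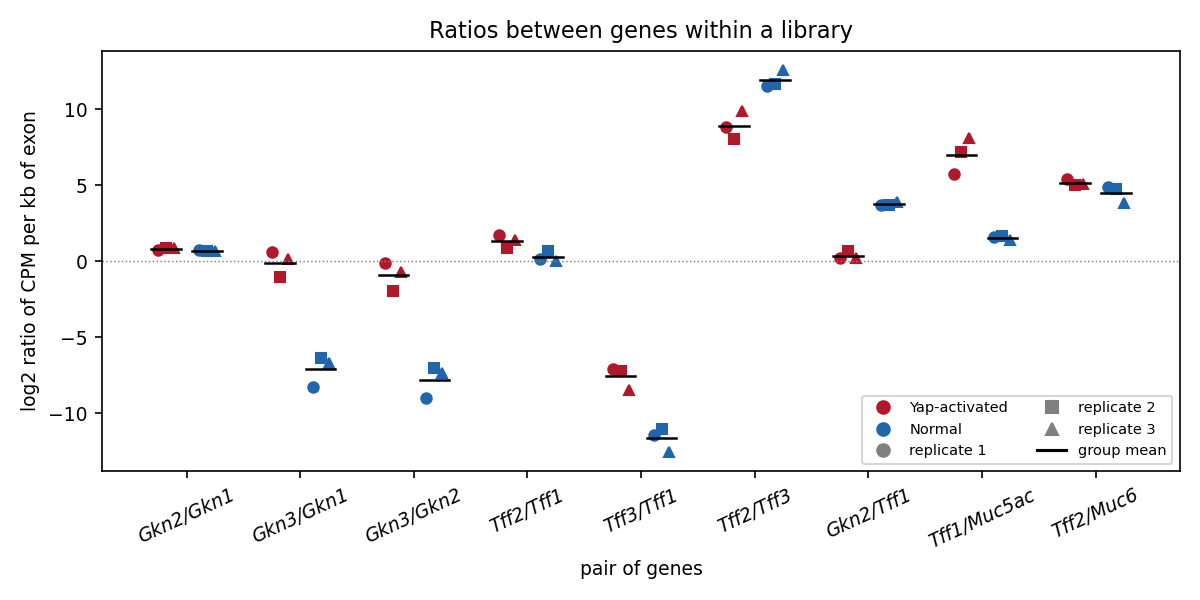
Log2 ratio of CPM per kb of exon between 2 genes of the same library, for 9 pairs, in Yap-activated (red) and Normal (blue) libraries, with group means as black lines and a dotted line at equal level. Gkn2/Gkn1 differs little between the groups, at 0.13 on the log2 scale, while Gkn3/Gkn1 and Gkn3/Gkn2 differ by 7.0 and 6.87.

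The 6 genes also varied among themselves within each group. Among Yap-activated libraries replicate 2 had the highest Gkn1, Gkn2, Tff1 and Tff3 and the lowest Gkn3 and Tff2, while replicate 1 had the highest Gkn3 and Tff2. Yap1 was highest in Yap-activated replicate 1. Among Normal libraries replicate 2 was highest for all 6 genes, and Gkn3 varied most, with a coefficient of variation of 58.4%. With 3 libraries a group these orders are a description only. Normal replicate 2 also stood apart in 7 markers of the squamous forestomach. Their summed level was 1.95, 37.2 and 0.569 CPM in Normal replicates 1, 2 and 3 and 54.4 to 79.5 CPM in Yap-activated libraries. Of the 6 tested 1 rose, beside 29.8% of all genes tested that rose. The part of these markers in the levels of the 6 genes was not tested.

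The genes that flank the 2 clusters moved in both directions. The trefoil factor genes lie in the order Tff3, Tff2, Tff1 between 31125306 and 31165277 on chromosome 17. Of 12 protein-coding genes within 250 kb of either cluster, 10 were tested, of which 2 rose, 3 fell and 5 did not pass. Over all genes tested 29.8% rose and 29.7% fell. The median log2 fold change of the 10 was 0.05. Beside the gastrokines, Antxr1, an anthrax toxin receptor, was at -0.74 (adjusted p = 0.0402), with overlapping groups, and D6Ertd527e at 1.45 (adjusted p = 0.00511). The number of neighbours that fell was 1 without Yap-activated replicate 1 or 2 or Normal replicate 1 or 3. Arhgap25 and Prokr1 were at 0.92 and -0.80 and did not pass. Beside the trefoil factors, Glp1r, the receptor of glucagon-like peptide 1, had 6.41, 4.01 and 5.10 CPM in Yap-activated libraries, against 95.3, 90.8 and 76.1 CPM in Normal libraries (log2 -4.09, edgeR adjusted p = 2.92e-06). Slc37a1, a phosphate-linked sugar transporter, rose (log2 0.71, adjusted p = 0.00142), and Tmprss3 was at -0.77 (adjusted p = 0.0383). Abcg1, Ubash3a and Rsph1, at 0.15, 0.07 and 0.03, did not pass, and Bmp10 and Umodl1 were too low to test. All of these neighbours but Glp1r, Slc37a1 and D6Ertd527e are named after their values were seen.

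**Figure D4:**
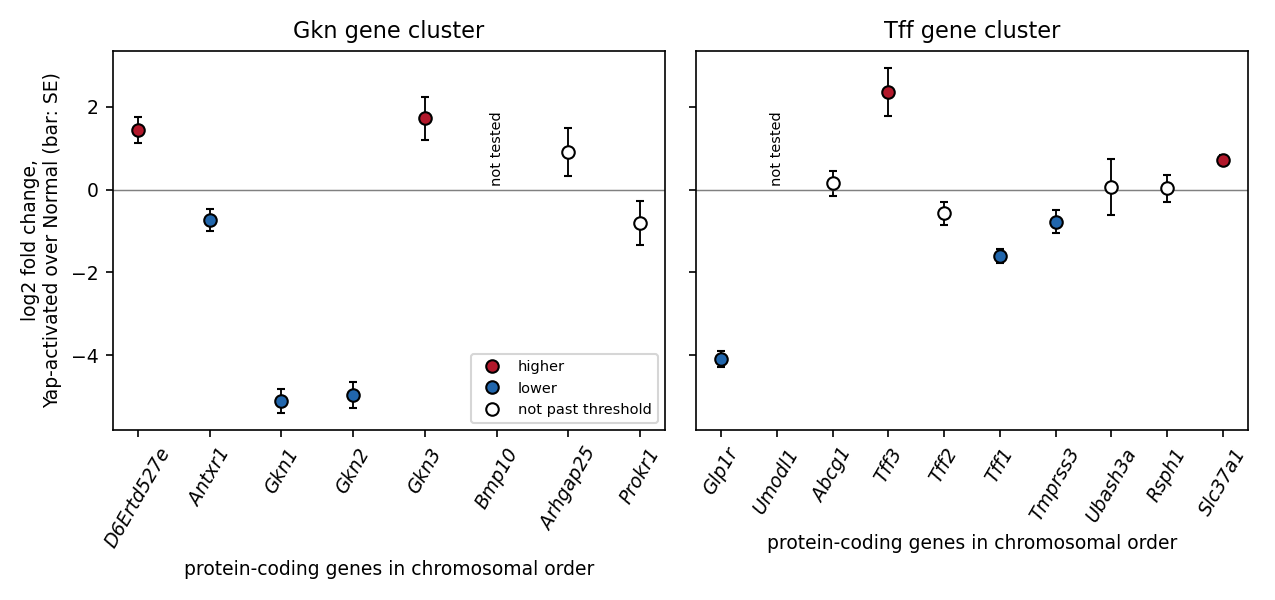
Log2 fold change of Yap-activated over Normal, with its SE, for the protein-coding genes of the gastrokine (left) and trefoil factor (right) regions in chromosomal order, filled by the edgeR call. Gkn1 and Gkn2 stand near -5 beside Gkn3 at 1.73, and Tff3 at 2.36 beside Tff2 at -0.58 and Tff1 at -1.60.

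Other genes of the pit cells mostly fell with Gkn1, Gkn2 and Tff1. Of 10 pit cell genes 7 fell, 1 rose and 2 did not pass, beside 29.7% of all genes tested that fell. Their median log2 fold change was -1.89, beside 0.01 over all genes tested. Muc5ac, the gel-forming mucin of pit cells, had 119, 50.1 and 22.1 CPM in Yap-activated libraries, against 6758, 7234 and 6262 CPM in Normal libraries (log2 -6.73, adjusted p = 0.000178). Psca, a membrane-anchored surface protein, fell to 175 ± 29.2 CPM in Yap-activated tissue, against 4580 ± 166 CPM in Normal tissue (SD, n = 3; log2 -4.71, edgeR adjusted p = 2.25e-06). Capn9, a calpain protease of the stomach, fell by 8.49 on the log2 scale, and Fut2, a fucosyltransferase of mucins, by 1.70. The exceptions, named after their values were seen, were Muc1, a membrane mucin, which rose by 0.57, and Foxq1 and Anxa10, at 0.23 and 0.22, which did not pass. Foxq1 shares 3200 of its 4843 exon bases with an antisense gene of the table. The rise of Muc1 was not called when Yap-activated replicate 3, Normal replicate 1 or Normal replicate 3 was left out. As markers of pit cells Muc5ac, Foxq1 and Psca summed to 338 to 515 CPM in Yap-activated and 11161 to 11953 CPM in Normal libraries, with 2 of the 3 lower and none at 0. Their part in the Gkn1, Gkn2 and Tff1 results was not tested.

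Genes of mucous neck cells and SPEM moved in both directions. Of 12 such genes 8 rose, 2 fell and 2 did not pass, beside 29.8% of all genes tested that rose, with a median log2 fold change of 2.47. Cd44, a hyaluronan receptor, rose to 537 ± 189 CPM in Yap-activated tissue, against 17.8 ± 4.10 CPM in Normal tissue (SD, n = 3; log2 4.92, edgeR adjusted p = 1.80e-05). Cftr, a chloride channel, and Glipr1 rose by 6.36 and 5.29 on the log2 scale, and Clu, a secreted chaperone, by 1.32. The Clu gene carries CreERT2 in the Yap-activated mice, and Glipr1 shares 352 of its 1543 exon bases with Krr1 on the opposite strand. Muc6 and A4gnt were those that fell. Muc6, the neck cell mucin, had 422, 359 and 422 CPM in Yap-activated libraries, against 673, 1131 and 1058 CPM in Normal libraries (log2 -1.25, adjusted p = 0.00141). A4gnt, the enzyme that adds the terminal sugar of Muc6 to which Tff2 binds, fell by 2.80 and is named after its value was seen. As 2 markers of neck cells, Muc6 and A4gnt summed to 376 to 453 CPM in Yap-activated and 792 to 1358 CPM in Normal libraries. Both were lower and neither was at 0. This pair is also the 2 of the 12 listed genes that fell, so it does not stand for the list, of which 8 rose. The part of neck cell markers in the Tff2 and Gkn3 results was not tested.

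**Figure D5:**
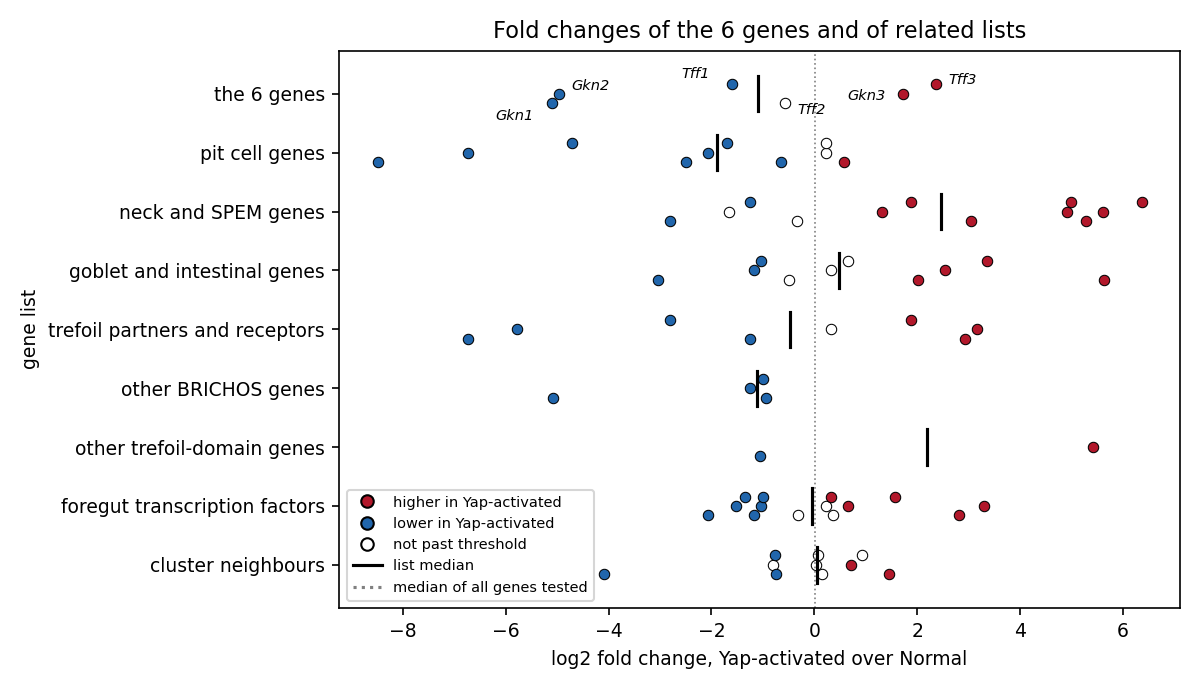
Log2 fold change of Yap-activated over Normal for the 6 genes and for the tested genes of 8 related lists, with 1 point per gene filled by its edgeR call, a black bar at each list median and a dotted line at the median of all genes tested. Gkn1 and Gkn2 lie among the pit cell genes that fell furthest, and the neck and SPEM list has its median at 2.47.

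Among 9 binding partners and proposed receptors of trefoil factors 8 were tested, of which 3 rose and 4 fell. Muc5ac, Muc6, A4gnt, Dmbt1 and Fcgbp also belong to the pit, neck or goblet lists, so these counts are not separate from theirs. Over all genes tested 29.8% rose and 29.7% fell. Of the 4 partners and receptors that fell, 1 reached the filter cutoff through the Normal libraries only. Cxcr4, a chemokine receptor proposed to respond to Tff2, had 17.4, 36.0 and 33.0 CPM in Yap-activated libraries, against 3.70, 3.11 and 2.85 CPM in Normal libraries (log2 3.16, adjusted p = 7.24e-05). Ackr3, an atypical chemokine receptor, rose by 2.93 on the log2 scale. Cxcr4 is also a gene of white blood cells. Of 6 myeloid markers 4 rose, beside 29.8% of all genes tested that rose, and none was at 0 in a whole group. Their summed level was 592, 50.4 and 309 CPM in Yap-activated replicates 1, 2 and 3 and 39.3 to 44.8 CPM in Normal libraries. The myeloid sum was lowest in Yap-activated replicate 2, where Cxcr4 was highest. Of 3 lymphoid markers 1 was tested and was not called. The lymphoid sum was 1.80, 0.262 and 0.428 CPM in Yap-activated replicates 1, 2 and 3 and 0.570 to 1.08 CPM in Normal libraries. The part of these markers in the Cxcr4 result was not tested. Fcgbp, a mucus protein known to bind Tff3 in humans, had 16.8, 11.0 and 12.2 CPM in Yap-activated libraries, against 0.845, 12.8 and 18.5 CPM in Normal libraries, and did not pass (log2 0.32). Without Normal replicate 1 its log2 fold change was -0.23.

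Of 14 transcription factors of the foregut 5 rose, 6 fell and 3 did not pass, with a median log2 fold change of -0.05. Spdef and Klf4 also belong to the goblet and intestinal list. Over all genes tested 29.8% rose and 29.7% fell. Gata4 fell to 84.9 ± 20.5 CPM in Yap-activated tissue, against 358 ± 3.50 CPM in Normal tissue (SD, n = 3; log2 -2.07, edgeR adjusted p = 5.53e-05). Gata6 fell by 1.52 on the log2 scale, and Klf4, a factor of differentiated epithelium, by 1.04. Pdx1, a factor of the antrum and pancreas, had 41.4, 38.2 and 22.0 CPM in Yap-activated libraries, against 3.15, 4.37 and 2.72 CPM in Normal libraries (log2 3.30, adjusted p = 6.70e-05). Klf5 rose by 1.57. Sox2, a foregut stem cell factor, was at 0.36 and did not pass (adjusted p = 0.208), though it did with library totals alone (log2 0.85, adjusted p = 0.0156).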

How the data were processed

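The authors deposited 1 table of read counts per gene symbol, not normalized, for 6 libraries. Per the labels' protocols, RNA of uncultured epithelial cells freed with EDTA went into TruSeq stranded mRNA libraries, read as paired 50 bp ends. Tools and builds listed in the submitters' processing notes are STAR 2.4.2a and DESeq2, with GRCm38 and mm10. No source used here names the counter, its annotation, its use of strand or its treatment of reads with several matches, which could touch the repeats of Muc5ac and Muc6. Every column was used. filterByExpr (minimum count 10) left 14600 genes, which were scaled by TMM and tested with edgeR 4.0.16 (robust quasi-likelihood F-test, R 4.3.3, no covariate, Benjamini-Hochberg adjustment over all genes tested). The SE is the log2 fold change over the square root of F. Shares, and ratios with 0.5 counts added, were compared by exact permutation of libraries. Exon lengths and coordinates came from GENCODE M21 (GRCm38), which holds 21523 of the 21526 symbols. The edgeR step was tested on simulated data in which far fewer genes changed than were called here. It recovered the size of known changes but missed some of them, and made a larger share of false calls than the threshold allows. No label ties libraries to animals, so the p-values speak only for the variation among these libraries.

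The members and lists were chosen with earlier results of these data known. Named genes are the 6 members, in each list the 3 of smallest p and the 1 of highest mean CPM, 8 fixed by name, and for each member the 3 of nearest profile; any others are marked. Alternatives were 4 scalings, 2 filters, non-robust dispersions, the DESeq2 1.42.0 Wald test, limma 3.58.1 voom, a replicate block and each library left out, and for shares and ratios other totals or 5 counts added.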

Additional observations from a re-analysis of the deposited data

How the results depend on the processing

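Gkn1, Gkn2 and Tff1 fell under all 16 alternatives, and Tff3 rose in the 15 that tested it. Library totals alone moved the median of all genes by 0.49 on the log2 scale and made 76.6% of calls higher, against 50.0% with TMM. There 3 pit cell genes rose, while 2 other BRICHOS genes, 0 other trefoil-domain genes (Gaa had log2 -0.55, edgeR adjusted p = 0.112) and 1 neighbour fell. Gkn3 was not called with no filter on low counts (log2 1.72, edgeR adjusted p = 0.0502) or with the replicate block (log2 1.83, edgeR adjusted p = 0.0625), so 1 member rose under each. With a filter of 1 CPM in 3 libraries 1 member rose, since Tff3 was dropped. Same-numbered libraries were not treated as paired. Their deviations from the group means correlated at 0.03, -0.01 and 0.07, and those of differently numbered libraries at -0.10 to 0.07. With 3 libraries a group these values cannot exclude pairing. The replicate block changed no member's call but that of Gkn3, and Sox2 passed with it (log2 0.35, edgeR adjusted p = 0.0434). With single libraries left out, Tff2 ran from -0.80 to -0.24 and Gkn3 from 1.34 to 2.20 on the log2 scale, 1 to 2 members rose, 3 to 4 fell, 0 to 1 pit cell genes rose and 1 to 3 neighbours fell. For these changes the cause was not tested. Counts of 4 to 97 limit the precision for Tff3.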

Other observations

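Other genes with the same protein domains were also measured. All 4 tested of 7 other BRICHOS genes fell, beside 29.7% of all genes tested that fell. The median log2 fold change of the 4 was -1.12, beside 0.01 over all genes tested. With single libraries left out, 3 to 4 of them fell. Tnmd, the tendon protein tenomodulin, was at or below 0.0372 CPM in Yap-activated libraries, against 0.728, 0.475 and 0.696 CPM in Normal libraries (log2 -5.07), and passed the filter on low counts through the Normal libraries only. Itm2b, a widely expressed membrane protein, had 259, 368 and 325 CPM in Yap-activated libraries, against 592, 634 and 668 CPM in Normal libraries, and fell by 0.99 on the log2 scale. Itm2c fell by 0.94, but did not pass with library totals alone (log2 -0.44, edgeR adjusted p = 0.0826). Among 4 other genes with trefoil domains 2 were tested. Mgam, an intestinal maltase, rose by 5.43 on the log2 scale, with 2.19 to 6.0 CPM in Yap-activated libraries and at most 0.119 CPM in Normal libraries, and passed the filter through the Yap-activated libraries only. Gaa, the lysosomal acid glucosidase, fell by 1.05.

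Profiles were compared by the distance between log2 CPM, centred over the 6 libraries, among 9321 genes with a mean of at least 10 CPM. The 6 members and provisional symbols (ending in Rik, or Gm with digits) were left out of these. Since both groups were centred together, genes of similar fold change lie near each other, and nearness largely restates the fold changes. Gkn1 and Gkn2 were 0.196 apart, and none of the 9321 genes was nearer to either. The next nearest were Rep15 (0.359), Kyat3 (0.619) and Psca (0.627) for Gkn1, and Rep15 (0.393), Psca (0.585) and Kyat3 (0.662) for Gkn2. Nearest to Tff1 were Stard10 (0.238), Suclg1 (0.271) and Ebpl (0.284), and to Tff2 Hnrnpul2 (0.514), Slc22a15 (0.538) and Gstp1 (0.558). For Tff3 the distances to S100a16 (1.23), Bcl3 (1.24) and Capg (1.26) were longer, as were those of Gkn3 to Isg20 (0.951), Tmc5 (1.04) and Edn1 (1.14).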
